A study of Mus musculus with 18 samples.

Results

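The genes described here are 45 cell cycle genes: cyclins, cyclin-dependent kinases (CDKs), CDK inhibitors, E2F factors and pocket proteins, replication licensing factors and mitotic genes. Open chromatin was mapped by ATAC-seq, in which Tn5 transposase cuts accessible DNA, and peaks of all 18 libraries that overlapped by at least 1 bp were merged into 33115 regions of the mouse genome (build mm10). A region was given to the gene whose end, the start or the finish of a protein-coding gene, lay nearest to the region's centre within 50 kb. Of the 27686 regions placed in this way, 108 belonged to 41 of the 45 genes. Of these 108, 41 lay within 1 kb of a gene end and 67 lay farther away.

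The mice were of the strain C57BL6/J, and the cells, naive CD4 T cells, were divided into low and high tonic T cell receptor stimulation by the Nr4a1-dsGFP reporter, whose green fluorescence follows Nr4a1, a gene induced by receptor signals. Reporter low and reporter high cells came from 3 organs, spleen, mesenteric lymph node and axillary lymph node, which made 6 groups with 3 libraries each. Every group was freshly prepared, carried the genotype label WT and received no treatment. The labels call the libraries biological replicates, without the animals' age or whether animals were pooled, so the p-values measure the spread between these libraries. At shared regions the libraries of a group differed by less than sampling noise (mean chi-square per degree of freedom 0.524 to 0.612, in all 6 groups), so beside the libraries the 6 group means were also fitted. These values are reads at the summit of the strongest peak, only in regions where all 18 libraries had a peak. How far this selection narrows the spread was not tested.

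The libraries held 14372 to 23129 peaks, with the most in mesenteric high cells. Background depth ran from 8.48 to 16.6 reads per 10 kb and was lowest, at up to 10.2, in the axillary libraries and spleen low replicate 3, and highest in mesenteric high cells. A fragment estimate was inferred for each library as the width of its shortest listed peak, and is not a value stated by the labels. It was 216 to 236 bp in 5 of the 6 axillary libraries and in spleen low replicate 3, and 161 to 176 bp in the other 12. Spleen low replicate 3 and axillary high replicate 2 thus each have the estimate of the other organ's libraries. Whether the 2 were exchanged or differ by batch was not tested, so results that rest on them are also given without both. Of the marker genes of cell types, those with at least 1 region were 9 of 9 for naive CD4 T, 3 of 3 for CD8 T, 2 of 5 for B, 2 of 3 for NK, 3 of 6 for myeloid, 1 of 4 for dendritic, 2 of 3 for erythroid and 2 of 3 for stromal cells. Regions open in all 18 libraries numbered 9 for the naive CD4 T cell genes, 1 each for the CD8 T, NK, dendritic and erythroid genes and 0 for the B cell, myeloid and stromal genes. Their part in the results was not tested.

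A resting naive T cell sits outside the cell cycle. When a mitogenic signal arrives, D-type cyclins with CDK4 and CDK6, and then cyclin E with CDK2, phosphorylate the retinoblastoma protein and its relatives, which releases E2F factors to transcribe the genes of DNA replication. Genes of mitosis are switched on later, and many of their promoters carry a CCAAT box and a cell cycle homology region (CHR) that is bound by the MuvB complex with B-Myb or FoxM1. CDK inhibitors of the Cip and Ink4 families hold the cycle back.

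Promoter sequence was taken from RefSeq (build GRCm38.p6), which had 42 starts of 36 of the 45 genes. Ccna2, Ccnd1, Ccnd2, Ccne2, E2f4, Rb1, Mcm4, Foxm1 and Aurkb were without an entry. The 9 promoters below are the starts at or nearest to the gene-end regions that passed a limma test in any comparison described later. Each is the 200 bases before the start, 5′ to 3′ in the direction of the gene, and capitals mark matches on either strand to the E2F letters TTTCCCGC, TTTGGCGC or TTCCCGCC, to the CHR letters TTTGAA and to CCAAT.
Ccne1, chr7:38107491-38107690, - strand: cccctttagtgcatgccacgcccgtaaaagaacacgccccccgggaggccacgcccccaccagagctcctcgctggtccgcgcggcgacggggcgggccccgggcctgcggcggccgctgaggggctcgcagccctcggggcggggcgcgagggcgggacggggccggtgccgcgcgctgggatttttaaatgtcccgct
Cdkn2c, chr4:109666757-109666956, - strand: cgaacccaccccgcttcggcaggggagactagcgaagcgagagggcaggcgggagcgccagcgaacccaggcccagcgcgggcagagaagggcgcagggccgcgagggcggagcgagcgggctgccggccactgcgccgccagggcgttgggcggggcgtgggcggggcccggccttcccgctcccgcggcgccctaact
E2f3, chr13:29986064-29986263, - strand: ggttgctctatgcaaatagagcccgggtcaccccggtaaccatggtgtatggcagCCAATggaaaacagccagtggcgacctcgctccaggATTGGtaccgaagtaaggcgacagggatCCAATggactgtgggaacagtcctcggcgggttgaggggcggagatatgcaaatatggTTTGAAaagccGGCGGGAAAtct
E2f7, chr10:110745239-110745438, + strand: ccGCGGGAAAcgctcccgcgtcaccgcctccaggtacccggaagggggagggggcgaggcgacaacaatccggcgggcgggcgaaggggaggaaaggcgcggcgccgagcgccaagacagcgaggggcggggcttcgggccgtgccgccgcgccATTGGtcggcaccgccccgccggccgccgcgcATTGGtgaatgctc
E2f8, chr7:48881597-48881796, - strand: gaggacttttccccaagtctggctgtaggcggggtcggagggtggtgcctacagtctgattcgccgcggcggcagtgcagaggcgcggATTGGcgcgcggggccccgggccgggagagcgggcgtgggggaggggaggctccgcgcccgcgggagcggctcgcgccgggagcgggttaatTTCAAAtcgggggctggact
Mcm3, chr1:20820313-20820512, - strand: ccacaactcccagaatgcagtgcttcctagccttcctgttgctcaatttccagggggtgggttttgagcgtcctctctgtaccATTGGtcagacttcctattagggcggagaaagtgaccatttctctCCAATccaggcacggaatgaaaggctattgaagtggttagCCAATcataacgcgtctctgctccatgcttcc
Mybl2, chr2:163054435-163054634, + strand: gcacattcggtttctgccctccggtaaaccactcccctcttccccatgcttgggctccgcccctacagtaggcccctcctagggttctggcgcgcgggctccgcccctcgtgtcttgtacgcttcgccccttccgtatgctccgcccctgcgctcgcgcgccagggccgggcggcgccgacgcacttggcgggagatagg
E2f1, chr2:154569427-154569626, - strand: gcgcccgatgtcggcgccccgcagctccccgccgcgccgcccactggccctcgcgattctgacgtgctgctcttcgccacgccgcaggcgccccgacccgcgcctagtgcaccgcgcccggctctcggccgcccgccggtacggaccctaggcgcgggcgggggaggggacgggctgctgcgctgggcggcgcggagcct
Cdkn2d, chr9:21291210-21291409, - strand: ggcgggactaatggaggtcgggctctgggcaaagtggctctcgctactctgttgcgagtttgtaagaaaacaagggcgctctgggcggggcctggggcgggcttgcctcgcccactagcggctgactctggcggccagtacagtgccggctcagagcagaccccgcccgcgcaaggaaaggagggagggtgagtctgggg

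The Ccne1, Cdkn2c, Mybl2, E2f1 and Cdkn2d windows held none of the searched letters, and no match says only that these letters are not in the window. The E2f1, E2f8, Cdkn2d and Mybl2 windows precede an inner start and lie inside the gene. The outer 5′ ends of these genes are at 154569892, 48882073, 21291421 and 163054327, in the same order. Their printed windows do not reach the sequence before those ends, and no region covered the inner start of E2f1 or E2f8. The E2f3 window held all 3 kinds: 2 overlapping E2F matches at positions -12 to -5 and -11 to -4 before the start, a CHR match at -23 to -18 and 3 CCAAT matches. The E2f7 window held an E2F match at -198 to -191 and 2 CCAAT matches. The E2f8 window held a CHR match at -20 to -15, and the Mcm3 window held 3 CCAAT matches.

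Over the 250 bases before the start, an E2F match was found in 7 of 42 cell cycle promoters (16.7%) and in 747 of the 21045 protein-coding promoters in the table (3.55%). The 7 were Mcm5, Mcm6, Mcm7, Cdk2, Cdc25a, E2f3 and E2f7, so the replication licensing genes held 3 of them. A CHR match was found in 23.8% of the cell cycle promoters and in 14.1% of all. CCAAT was found in 66.7% of the cell cycle promoters against 35.6% of all, and in all 7 promoters of the mitotic genes and all 7 of the replication genes. These shares describe letters in a window and not bound sites. The cell cycle promoters were also richer in G and C, with a median of 62.0% against 55.6%, but among starts inside a region with a peak in every library the medians were 59.6% and 62.0%. Among those starts, an E2F match was found in 22.2% of the cell cycle promoters and in 5.97% of all. For CHR the shares were 29.6% and 8.82%, and for CCAAT 81.5% and 42.2%. The start lay inside a region with a peak in all 18 libraries for 27 of the 42 cell cycle promoters (64.3%) and for 29.5% of all promoters in the table.

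Most cell cycle gene promoters were open in every group. Of the 41 regions within 1 kb of a gene end, 30 had a peak in all 18 libraries (73.2%), against 55.6% of the 10097 such regions of all genes. Only 5 of the 67 farther regions did (7.46%), against 14.0% of the farther regions of all genes. Another 20 of the 108 regions had a peak in a single library. Among the shared gene-end regions, the median fold over background at the summit, a ratio given by the authors' peak caller, was 10.6 for the members and 10.8 for all 5614 such regions.

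**Figure D1:**
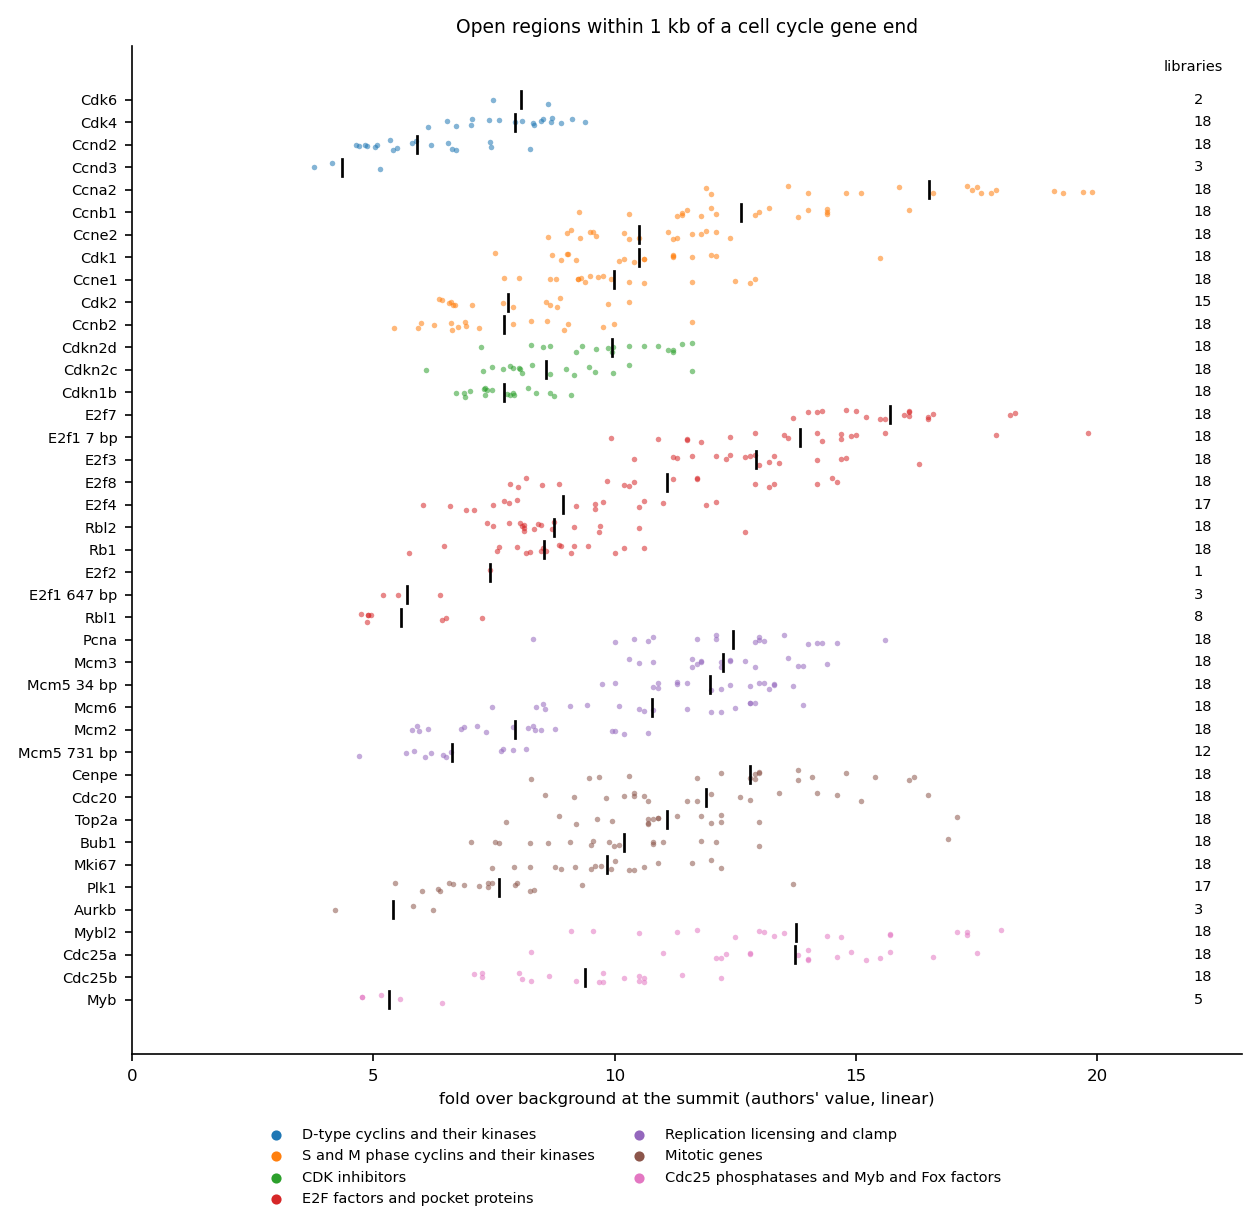
The horizontal axis is the authors' fold over background at the summit on a linear scale, and each row is 1 of the 41 regions within 1 kb of a cell cycle gene end, coloured by role. Points are libraries with a peak, black bars are means over them, and the number at the right counts those libraries. Ccna2 and E2f7 had the highest means (16.5 and 15.7), while Ccnd3, Cdk6, E2f2, Aurkb and the far-end region of E2f1 had peaks in at most 3 libraries.

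The D-type cyclins and their kinases, which start the cycle, had few shared gene-end regions. Their 5 genes held 23 regions, of which 4 lay within 1 kb of a gene end and only 2 of those, at Cdk4 and Ccnd2, had a peak in every library. The region at the start of Cdk4, the kinase partner of the D-type cyclins, had a fold of 7.94 ± 0.949 (SD, n = 18), and that of Ccnd2 had 5.90 ± 1.06 (SD, n = 18). The highest fold within 1 kb in this group belonged to a Cdk6 region present in only 2 libraries, 1 of spleen high and 1 of axillary high cells, with 8.06 ± 0.800 (SD, n = 2). At Ccnd3, a cyclin D of lymphocytes, the outermost start had a peak in 3 libraries. A second RefSeq start inside the gene lay in a region with a peak in all 18 libraries (chr17:47593234-47593659, fold 9.03 ± 1.79, SD, n = 18), which the rule gave to the neighbour Bysl because an end of Bysl was nearer. The shared region assigned to Ccnd3 lay inside the gene, 26632 bp from the outermost start (chr17:47531452-47531915), with a fold of 7.23 ± 0.876 (SD, n = 18). Ccnd1 had 1 region, inside the gene and 2152 bp from its end, with a peak in 4 libraries.

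Cyclins and kinases of S phase and mitosis had a median fold of 10.5 over the 6 gene-end regions that were present in all libraries, near the 10.8 of all such regions. The region at Ccna2, cyclin A2 (chr3:36571785-36572450, 921 bp inside the gene end), was the strongest of all 41. Its fold was 17.6, 19.1 and 11.9 in spleen low, 17.8, 17.9 and 17.4 in spleen high, 19.9, 17.3 and 16.6 in mesenteric low, and 19.7, 19.3 and 15.9 in mesenteric high cells. In axillary cells it was 15.1, 17.5 and 13.6 in the low group and 14.0, 14.8 and 12 in the high group. The groups overlapped, and the lowest value was that of spleen low replicate 3, which has the fragment estimate of the axillary libraries. Ccnb1, cyclin B1, followed with 12.6 ± 1.70, Cdk1 had 10.5 ± 1.77, and Cdk2, the partner of cyclins E and A, had a peak in 15 libraries.

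Of the CDK inhibitors, Cdkn1b (p27), Cdkn2c (p18) and Cdkn2d (p19) had a gene-end region in all 18 libraries. The Cdkn2d region (chr9:21290928-21291705) was the strongest at 9.93 ± 1.23 (SD, n = 18), with a range from 7.23 in axillary low replicate 2 to 11.6 in axillary low replicate 1. Cdkn1a (p21), the inhibitor induced by p53, had no region within 1 kb of the outer gene ends, and the region over an inner start had a peak in 1 library. Its most frequent one, inside the gene at chr17:29095192-29095739, had a peak in 16 libraries.

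E2F factors and pocket proteins held 30 regions, 10 of them within 1 kb. The repressive factors E2f7 and E2f8 and the activators E2f1 and E2f3 had gene-end regions in all 18 libraries. The E2f7 region (chr10:110744932-110745682) ran from 13.7 in axillary high replicate 3 to 18.3 in mesenteric low replicate 3, with a mean of 15.7 ± 1.29 (SD, n = 18). E2f1 reached 13.9 ± 2.44, E2f3 12.9 ± 1.43 and E2f8 11.1 ± 2.31. Rb1, which encodes the retinoblastoma protein, had 8.53 ± 1.22 and its relative Rbl2 (p130) had 8.76 ± 1.27, while Rbl1 (p107) had a gene-end peak in only 8 libraries. E2f2 had a single gene-end peak, at its far end in 1 mesenteric low library. No region covered its outer start, and the region over an inner start (chr4:136180099-136180807) was present in 16 libraries. A second E2f1 region, at the far end of the gene (chr2:154558530-154558977), had a peak of 6 to 8 reads in all 3 mesenteric high libraries, the deepest with the longest lists, and in none of the other 15. It was left in 1 library at equal depth, in 0 with lists of equal length and in 0 at a −log10 p of at least 10.

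Replication genes were open throughout. Pcna, the sliding clamp of DNA polymerase, had the highest fold of this group (chr2:132252525-132253564, 12.5 ± 1.87, SD, n = 18). Its values ran from 10.4 to 12.1 in axillary low, from 8.30 to 10.8 in axillary high and from 11.7 to 15.6 in the 12 other libraries. The axillary libraries lay low on this scale, on which the median of all shared regions was also lower in axillary nodes than in spleen (log2 difference -0.11). In scaled reads Pcna had 27.6 to 38.5 in axillary nodes, 32.4 to 48.3 in spleen and 32.3 to 40.2 in mesenteric nodes, which overlapped, and no organ comparison was called. Mcm2, Mcm3, Mcm5 and Mcm6, subunits of the replicative helicase, also had a start region in every library. Mcm4 and Mcm7 had none by the rule, because the end of a neighbouring gene was nearer. Regions open in all 18 libraries lay 201 bp from Mcm4 (assigned to Prkdc, fold 13.1 ± 1.33) and 157 bp from Mcm7 (assigned to Ap4m1, 8.39 ± 1.70). The same held for Aurka, whose region was assigned to Cstf1 (a fold of 12, SD 1.40), and for Foxm1, whose region was assigned to Rhno1 (8.93 ± 1.20).

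Mitotic genes had a median fold of 11.1 at the 5 gene ends open in every library. Cenpe, a kinesin of the kinetochore, was the strongest at its start (chr3:135212063-135212819, 12.8 ± 2.25, SD, n = 18), with 8.27 to 12.2 in axillary cells and 12.8 to 16.2 in the 12 spleen and mesenteric libraries. In scaled reads the same start overlapped, with 19.9 to 30.0 in axillary nodes, 27.3 to 36.0 in spleen and 25.2 to 33.3 in mesenteric nodes, and axillary minus spleen was -0.35 (SE 0.12, adjusted p = 0.0552, limma). Cdc20, the activator of the anaphase-promoting complex, had 11.9 ± 2.19, Top2a 11.1 ± 2.00 and the checkpoint kinase Bub1 10.2 ± 2.34. Mki67, which encodes the proliferation antigen Ki-67, had 9.85 ± 1.33 at its start. A region 19438 bp away on the far side of its start (chr7:135735606-135736170), in no gene, was stronger at 15.1 ± 2.27 and also open in all 18 libraries. Aurkb had a gene-end peak in 3 libraries and Plk1 in 17.

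Among the Cdc25 phosphatases and Myb factors, the start regions of Mybl2 (B-Myb) and Cdc25a, which removes inhibitory phosphates from CDKs, were alike in height at 13.8 ± 2.73 and 13.7 ± 2.16 (SD, n = 18). The Mybl2 region (chr2:163054306-163054797) ran from 9.09 in axillary low replicate 1 to 18 in mesenteric low replicate 3. Myb itself (c-Myb) had 5 regions, none of them in all libraries, and its start had a peak in 5.

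The first question was whether reporter high and low cells differed in which cell cycle regions were open. None passed the test. Of the 17 member regions with a peak in 6 to 12 libraries, 0 had an unadjusted p below 0.05 in Fisher's exact test of 9 high against 9 low libraries (two-sided), while 6.10% of all 5737 regions tested did. Without the mesenteric libraries, of which the high group had the most peaks and depth, 0 of 17 members and 1.12% of all regions did. The largest imbalance was at Cdk6, where regions 39807 bp before the gene (chr5:3300857-3301538) and 42795 bp inside it (chr5:3383582-3384016) each counted 8 high and 4 low libraries, of 9 each (exact p = 0.131 for each). When 1 low library was left out (spleen low replicate 1, 2 or 3, mesenteric low replicate 2 or 3, or axillary low replicate 1), 1 or 2 regions of 13 to 15 passed an unadjusted p of 0.05 in the exact test, each a Cdk6 region, where 8.09% to 9.58% of all regions passed.

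The second question was whether the organs differed. Of 22 member regions tested with the exact test across 3 organs, 5 had an unadjusted p below 0.05 (22.7%), against 11.2% of all 7630 regions. None remained after adjustment over all regions, where the smallest adjusted p of any region was 0.0881. In 4 of the 5 the axillary node had the fewest peaks, and 5 of its 6 libraries have the long fragment estimate. Summit and background reads of the listed peaks were also scaled down to the depth of the shallowest library, without new peak calls. The 5 regions then had the same peak counts and p, but loss of peaks by read sampling was not modelled. Without the 2 libraries whose estimate differs from the others of their organ, 7 of 18 member regions had an exact p below 0.05, against 15.0% of all regions. Among the 5, Cenpe (exact p = 0.000458), Cdk1 (exact p = 0.0229) and Myb (exact p = 0.0297) could be tested.

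**Figure D2:**
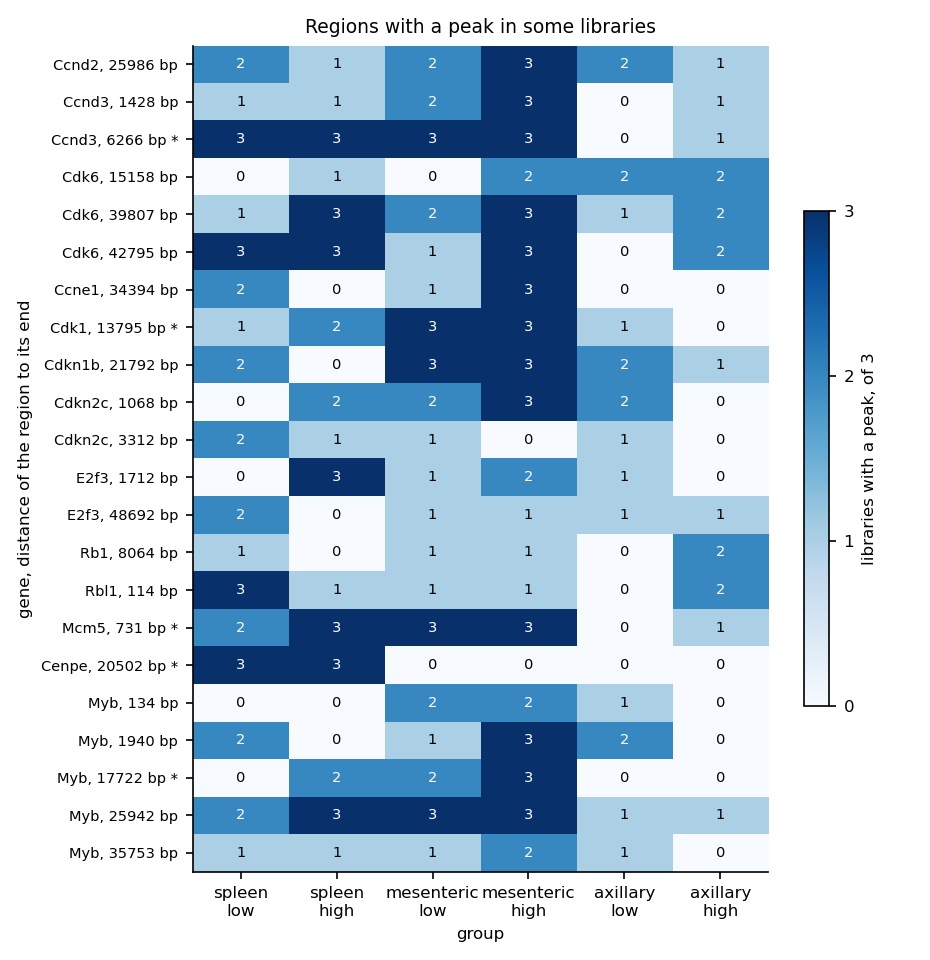
Rows are the cell cycle regions with a peak in a middle number of libraries, with the distance in bp to the gene's end, columns are the 6 groups, and each cell counts the libraries with a peak, of 3. Stars mark an unadjusted p below 0.05 across organs. The Cenpe row has peaks only in the 6 spleen libraries, and the Ccnd3 row at 6266 bp has 1 peak among the 6 axillary libraries.

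The region that differed most lay 20502 bp upstream of Cenpe (chr3:135191844-135192279), in no gene. Its summit held 7, 8 and 7 reads in the spleen low libraries and 15, 14 and 14 reads in the spleen high libraries, and no peak was listed in any of the 12 lymph node libraries (exact p = 0.000162, unadjusted). Spleen low replicate 3, of long fragment estimate, was among the libraries with a peak, and axillary high replicate 2, of short estimate, was not. The lists give no reads where no peak was listed, so how far the nodes differ in reads is not known. The cause was not tested. At a −log10 p of at least 10 the region was left with 4 spleen libraries and was not tested.

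At Ccnd3, a region 6266 bp inside the gene (chr17:47511093-47511542) had 15 to 23 reads in the 6 spleen libraries and 18 to 32 in the 6 mesenteric libraries. It had a peak of 14 reads in axillary high replicate 3 and none in the other 5 axillary libraries (exact p = 0.00210, unadjusted). A region 731 bp from the start of Mcm5 (chr8:75108553-75108922) behaved alike, with peaks in 5 spleen, 6 mesenteric and 1 axillary libraries (exact p = 0.0118). The axillary peak, of 13 reads, was in high replicate 3, and the region was listed neither in spleen low replicate 3, of long estimate, nor in axillary high replicate 2, of short estimate.

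A region 17722 bp upstream of Myb (chr10:21178393-21179020) had peaks in 2 spleen high, 2 mesenteric low and 3 mesenteric high libraries, with 5 to 12 reads, and in no axillary library (exact p = 0.0181). A region 13795 bp beyond the far end of Cdk1 (chr10:69321140-69321562) had peaks in all 6 mesenteric, 3 spleen and 1 axillary libraries, with 6 to 13 reads (exact p = 0.0210). When every list was cut to the 14372 strongest peaks, the Mcm5 region reached an exact p of 0.110, the Cdk1 region an exact p of 0.357, and the Myb region had too few peaks to test. The Cenpe and Ccnd3 regions had the same exact p as before.

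How strongly regions were open was compared where every library had a peak, in 8756 regions, 35 of which belonged to cell cycle genes. The measure was the number of reads at the summit, recovered from the authors' fold and −log10 p, scaled so that the median region was level across libraries, and tested with limma on a log2 scale. As a mean over the 3 organs, reporter high and low cells differed at 3 of the 35 regions (8.57%), against 1.51% of all regions. Of the 3, 1 was higher in high cells and 2 were lower, where 0.879% and 0.628% of all regions were called. The 35 differences ran from -0.38 to 0.60 on the log2 scale, and their median was -0.03, against 0.000 over all regions.

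**Figure D3:**
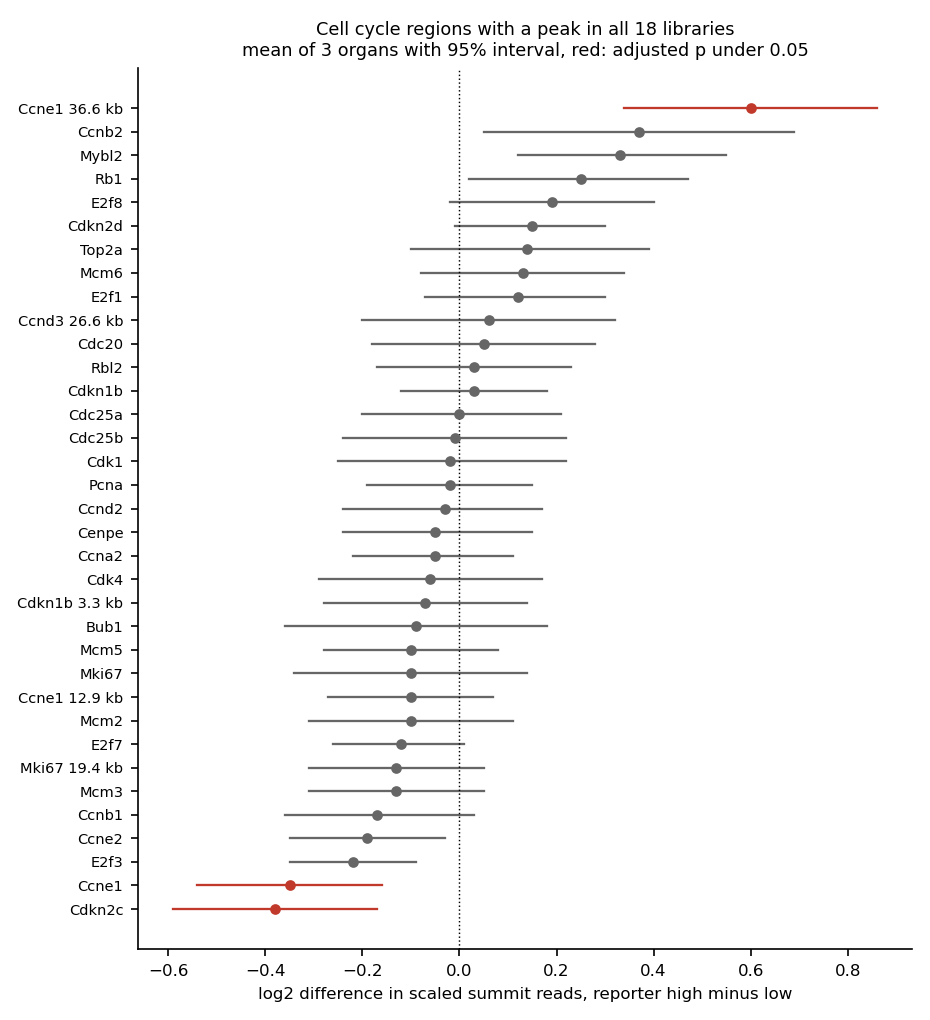
The horizontal axis is the log2 difference in scaled summit reads between reporter high and low cells, averaged over the 3 organs, and each row is 1 of the 35 cell cycle regions open in every library. Points are limma estimates with 95% intervals, and red marks an adjusted p under 0.05. A region 36.6 kb from Ccne1 stands at 0.60, and the start regions of Ccne1 and Cdkn2c stand at -0.35 and -0.38.

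Ccne1, the gene of cyclin E1, had both the largest rise and one of the falls. The region that rose lies 36637 bp beyond the far end of the gene (chr7:38061035-38061659), in no gene and with Uri1 37783 bp away on its other side. Scaled summit reads there were 18.6, 15.2 and 11.6 in spleen low and 17.5, 21.3 and 17.2 in spleen high cells. Mesenteric low cells had 7.84, 12.7 and 12.7 and mesenteric high cells 21.4, 22.1 and 20.2. Axillary nodes had 13.2, 12.4 and 13.8 in low and 14.6, 25.2 and 17.7 in high cells. High and low cells did not overlap in either node but did in the spleen.

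The log2 difference averaged 0.60 (SE 0.13), or 1.52-fold, with an adjusted p of 0.00419 (limma), and the 18 fits that each left out 1 library gave 0.52 to 0.66 with adjusted p up to 0.0286. In mesenteric nodes alone it was 0.97 (SE 0.23, adjusted p = 0.0100, limma), 1.96-fold, and the call was lost without mesenteric low replicate 1 (0.74, adjusted p = 0.145), mesenteric high replicate 1 or mesenteric high replicate 2, or when scaled by background reads (0.90, adjusted p = 0.0645). The axillary high library with 25.2 reads was the 1 with a short fragment estimate, and the spleen low library with 11.6 reads was the 1 with a long estimate. Without both, the average was 0.47 (adjusted p = 0.0688, limma), and with the fragment estimate as a covariate it was 0.47 (adjusted p = 0.0696). The mesenteric difference, where all 6 libraries had short estimates, was 0.97 in both fits (adjusted p = 0.00547 and 0.00652). With 1 mean per group in place of the libraries, the average was 0.60 with an adjusted p of 0.0800.

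The region over the Ccne1 start (chr7:38107397-38108180), whose sequence is printed above, moved the other way. Scaled reads were 30.4, 25.3 and 25.3 in spleen low and 24.7, 27.3 and 33.4 in spleen high cells, which overlapped. In mesenteric nodes they were 38.2, 39.2 and 39.2 in low and 28.3, 23.7 and 23.2 in high cells, and in axillary nodes 34.1, 30.4 and 30.0 in low and 24.1, 20.4 and 23.2 in high cells. Low cells were above high cells in both nodes without overlap.

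The average difference at this start was -0.35 (SE 0.09, adjusted p = 0.0337, limma), and that in mesenteric nodes was -0.64 (SE 0.16, adjusted p = 0.0212). The average call was lost on leaving out any 1 of spleen low replicate 1, spleen high replicates 1 and 2, mesenteric low replicates 2 and 3, mesenteric high replicates 2 and 3, axillary low replicate 1 and axillary high replicate 2 (adjusted p up to 0.0833). The mesenteric call was lost on leaving out any 1 mesenteric library except high replicate 1 (adjusted p up to 0.132). It was also lost when scaled by background reads. With the authors' fold, or with a scaling that depends on signal, at most 1 of the mesenteric calls at the start and at the far region remained. With the authors' fold in place of scaled reads the average was -0.20 (adjusted p = 0.325, limma), with a scaling that depends on signal -0.34 (adjusted p = 0.0554), with the fragment covariate -0.34 (adjusted p = 0.0728), without the 2 libraries of unlike estimate -0.34 (adjusted p = 0.0615) and with group means -0.35 (adjusted p = 0.295).

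**Figure D4:**
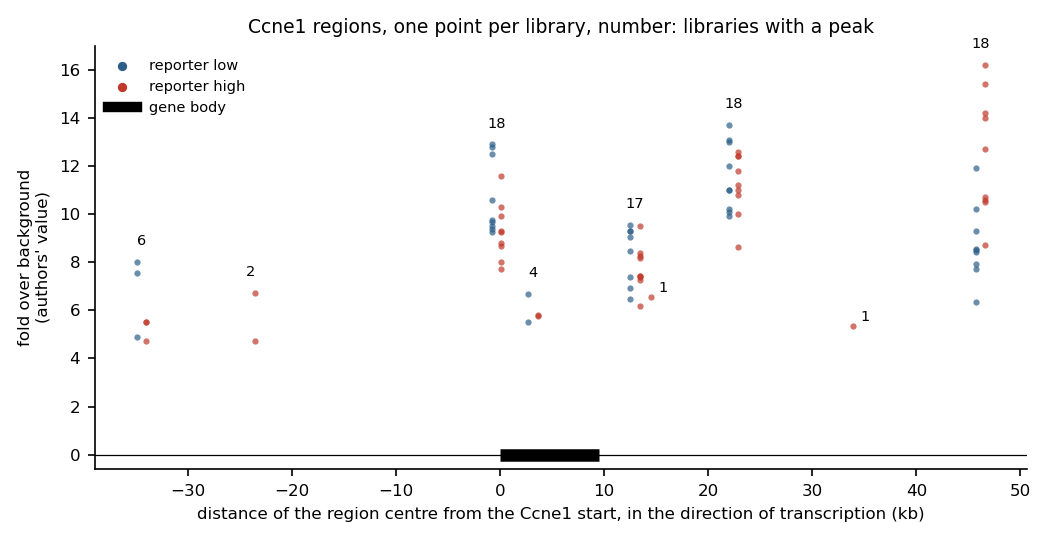
The horizontal axis is the distance in kb of each of the 9 Ccne1 regions from the gene's start, in the direction of transcription, and the vertical axis is the authors' fold over background in each library with a peak, blue for reporter low and red for reporter high. The number above each region counts those libraries, and the black bar is the gene. Of the 4 regions with a peak in 17 or 18 libraries, 3 lie beyond the gene's far end.

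Between them, another shared region lay 12939 bp beyond the far end of Ccne1 (chr7:38084655-38085435), with a mean of 36.6 summit reads. Spleen values were 34.3, 34.4 and 30.6 in low and 37.0, 40.5 and 35.4 in high cells. They did not overlap, but the difference was not called (0.19, SE 0.15, adjusted p = 0.752, limma). Axillary values were 35.2, 36.1 and 34.6 in low and 38.7, 25.2 and 47.5 in high cells, which overlapped. Mesenteric values were 42.1, 49.0 and 40.2 in low and 29.8, 33.6 and 28.5 in high cells, lower in high cells without overlap, with a log2 difference of -0.51 (SE 0.15) and an adjusted p of 0.0554 (limma). In scaled reads of mesenteric nodes the far region and the start of Ccne1 thus moved in opposite directions in the same libraries. Neither mesenteric call remained when scaled by background reads. Whether the high and low difference itself differed between organs was tested as an interaction. None of the 35 regions passed for mesenteric against spleen (0.297% of all regions called), axillary against spleen (0.00%) or mesenteric against axillary (0.103%) with limma after adjustment. At an unadjusted p below 0.05 there were 5, 5 and 4 members, where 10.2%, 7.47% and 9.32% of all regions passed, so a call in 1 organ is not shown to be particular to it.

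Cdkn2c encodes p18, an inhibitor of CDK4 and CDK6. At its start (chr4:109666620-109667234) scaled reads were 27.4, 28.3 and 28.5 in spleen low against 24.7, 27.3 and 21.2 in spleen high cells, and 27.4, 32.3 and 20.6 against 17.6, 19.1 and 24.7 in mesenteric nodes. In axillary nodes they were 31.9, 30.4 and 23.1 against 15.7, 21.6 and 21.0. High cells had the lower mean in all 3 organs, without overlap in the axillary nodes. The spleen groups met, at 27.4 against 27.3 scaled reads, and unscaled both spleen low replicate 3 and spleen high replicate 2 had 27 reads. The average log2 difference was -0.38 (SE 0.11, adjusted p = 0.0439, limma), and this call was lost without any 1 of 12 libraries (spleen low replicates 1, 2 and 3, spleen high 1 and 3, mesenteric low 1 and 2, mesenteric high 1 and 2, axillary low 1 and 2, axillary high 1), with adjusted p up to 0.130. With the authors' fold it was -0.22 (adjusted p = 0.396, limma), with group means -0.38 (adjusted p = 0.233), with the fragment covariate -0.40 (adjusted p = 0.0578), without the 2 libraries of unlike estimate -0.40 (adjusted p = 0.0545) and with the scaling by signal -0.39 (adjusted p = 0.0542).

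**Figure D5:**
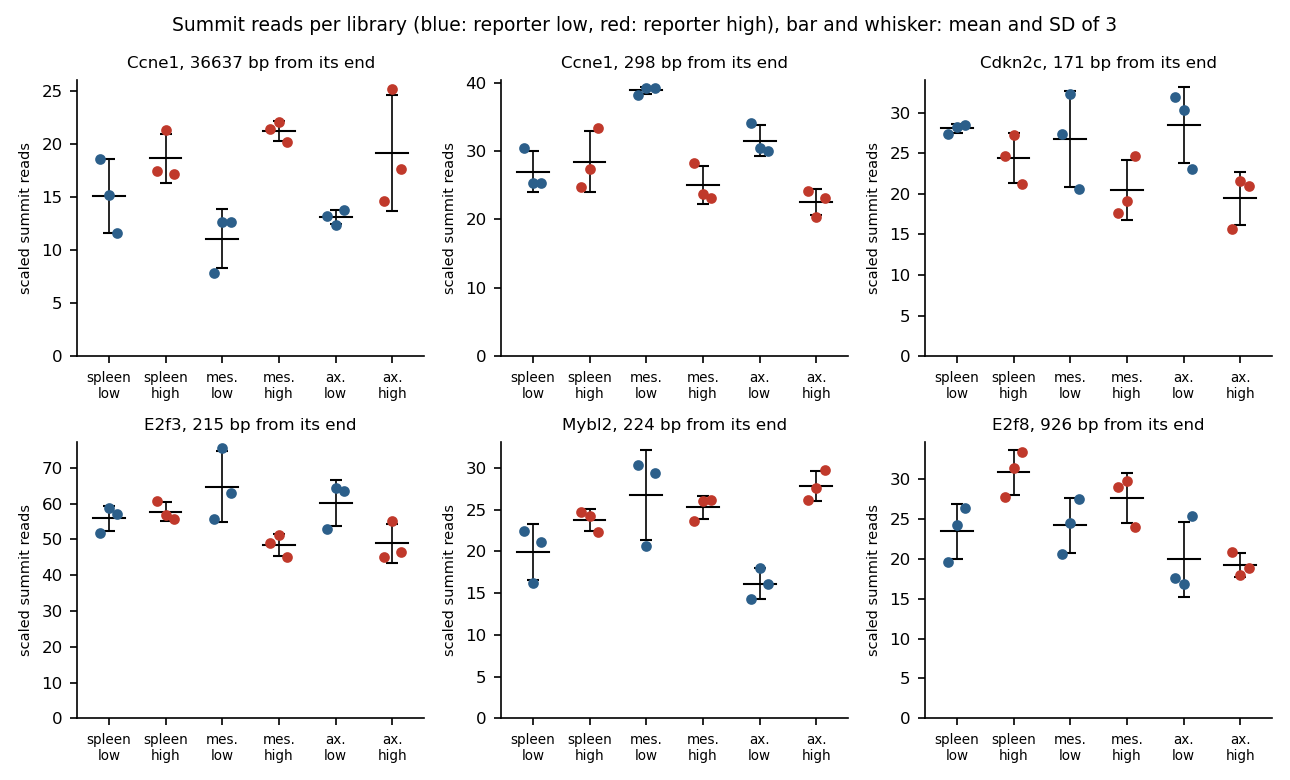
Each panel plots scaled summit reads (vertical axis, from 0) in the 6 groups for 1 region, with 1 point per library, blue for reporter low and red for high, and bars and whiskers for the mean and SD of 3. High cells lie above low cells at the far Ccne1 region in both nodes and below them at the Ccne1 start, and the axillary groups separate at Mybl2.

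Within single organs, calls were few. In the spleen 0 of 35 regions passed with limma, against 0.206% of all regions, and 2 had an unadjusted p below 0.05, against 8.67%. The nearest was Ccne2, cyclin E2, with 44.1, 45.5 and 42.2 scaled reads in low and 29.8, 31.4 and 28.3 in high cells, a log2 difference of -0.56 (SE 0.14) and an adjusted p of 0.0518. The 2 groups did not overlap there. In the other organs the Ccne2 high and low values overlapped.

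In mesenteric nodes 3 regions passed (1.43% of all regions), namely the 2 Ccne1 regions above and the start of E2f3 (chr13:29985960-29986599), the promoter with all 3 kinds of motif. E2f3 had 55.8, 75.5 and 62.8 scaled reads in low and 48.9, 51.2 and 45 in high cells, which did not overlap. The log2 difference was -0.41 (SE 0.11, adjusted p = 0.0367, limma). It was lost without mesenteric low replicate 2 (-0.29, adjusted p = 0.327) or 3 or any mesenteric high replicate. Regions with at least 50 reads had a median mesenteric difference of -0.16, and with the scaling by signal E2f3 stood at -0.26 (adjusted p = 0.419, limma). The authors' fold gave -0.25 (adjusted p = 0.361) and background scaling -0.48 (adjusted p = 0.186).

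In axillary nodes 1 region passed (0.320% of all regions). This was the start of Mybl2, the B-Myb gene, with 14.3, 18 and 16.1 scaled reads in low and 26.2, 27.6 and 29.8 in high cells. The groups stood clear of each other, with a log2 difference of 0.79 (SE 0.19), 1.73-fold, and an adjusted p of 0.0247 (limma). The adjusted p was 0.0358 with the fragment covariate. The call was lost on leaving out axillary low replicate 1 or 3 or any axillary high replicate (adjusted p up to 0.156), without the 2 libraries of unlike estimate (0.80, adjusted p = 0.0841), with the authors' fold (0.59, adjusted p = 0.234) and when scaled by background reads (0.68, adjusted p = 0.269). In the spleen and mesenteric nodes Mybl2 high and low values overlapped, with 16.2 to 22.5 reads in spleen low and 22.3 to 24.7 in spleen high cells.

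Between organs the calls rested on the axillary libraries. Mesenteric nodes against spleen gave 0 of 35 regions with limma (1.71% of all regions), with 2 at an unadjusted p below 0.05 (16.0% of all). Axillary nodes against spleen gave 3, all lower in axillary nodes (6.93% of all regions called, 3.32% lower), and mesenteric against axillary nodes gave 5, of which 3 were higher and 2 lower in mesenteric nodes (11.3% of all regions called, 5.07% higher and 6.24% lower). For the last, scaling by background reads gave 0 higher and 5 lower (23.2% of all regions called), and the authors' fold gave 19 higher and 0 lower (3327 of all 8756 regions called). The main share, 14.3% of the members, is near that background. The 2 comparisons share the axillary libraries.

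E2f8, an atypical repressive E2F, was lower in axillary nodes in both. Scaled reads at its gene-end region (chr7:48880800-48881494) had a lowest, median and highest value of 19.6, 27.1 and 33.4 in spleen, 20.6, 26.0 and 29.8 in mesenteric nodes and 16.9, 18.4 and 25.4 in axillary nodes. The ranges overlapped, mostly through axillary low replicate 3. The log2 difference was -0.46 (SE 0.13, adjusted p = 0.0177, limma) for axillary minus spleen and 0.40 (SE 0.13, adjusted p = 0.0317) for mesenteric minus axillary.

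The Cdkn2d start followed the same order, with spleen values of 37.4, 47.7 and 54.7, mesenteric values of 41.2, 46.4 and 51.2 and axillary values of 25.9, 40.0 and 46.2, again overlapping. The log2 difference was -0.29 (SE 0.10, adjusted p = 0.0469, limma) for axillary minus spleen and 0.28 (SE 0.10, adjusted p = 0.0402) for mesenteric minus axillary. The far Mki67 region had 31.4, 34.6 and 40.5 in spleen and 20.4, 28.5 and 31.6 in axillary nodes, which overlapped at the edge, with a log2 difference of -0.34 (SE 0.11, adjusted p = 0.0418). At the region beside the start of E2f1 (chr2:154569512-154570258) mesenteric values were 30.4, 35.1 and 48.0 and axillary values 23.1, 27.3 and 36.6, which overlapped, with a log2 difference of 0.37 (SE 0.12, adjusted p = 0.0250).

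Higher in axillary nodes were the start of the helicase subunit Mcm3 (chr1:20820005-20820699) and the start of E2f7. Mcm3 had mesenteric values of 24.0, 29.9 and 35.3 and axillary values of 31.4, 37.1 and 46.2, and E2f7 had 40.2, 49.6 and 65.7 against 53.9, 57.0 and 66.8. Both pairs overlapped, with log2 differences for mesenteric minus axillary of -0.34 (SE 0.11, adjusted p = 0.0320, limma) and -0.25 (SE 0.09, adjusted p = 0.0376).

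These organ differences moved with how libraries were scaled and with the fragment estimate. Scaling by background reads shifted the median of all regions by 0.32 for axillary minus spleen, where 9 member regions were called, all higher in axillary nodes, in place of 3 lower, and 45.3% of all regions were called. There E2f8 stood at -0.14, Mki67 at -0.02 and Cdkn2d at 0.03. With the authors' fold the mesenteric minus axillary median shifted by 0.21, and Mcm3 and E2f7 both stood at 0.04. With the fragment estimate as a covariate, 1 of the 3 axillary minus spleen calls (Mki67) and 0 of the 5 mesenteric minus axillary calls remained, and organ and fragment estimate can be separated only through spleen low replicate 3 and axillary high replicate 2. Without both of these, none of the 3 axillary minus spleen calls passed (adjusted p 0.0652 to 0.218), and of the 5 others E2f1 (0.40, adjusted p = 0.0213, limma), E2f7 (-0.26, adjusted p = 0.0413) and Cdkn2d (0.31, adjusted p = 0.0265) passed. Each of these 8 calls was also lost on leaving out at least 2 single libraries: for E2f8 against spleen these were spleen low replicate 3 and axillary low replicate 2 (adjusted p up to 0.0544), and for the other 7 they numbered 5 to 12, with adjusted p up to 0.290 for Cdkn2d against spleen.

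Another 86 genes of the cell cycle, such as origin recognition, checkpoint and spindle genes, gave a background for the 45. Of these, 79 had 137 regions, and 62 of their 74 gene-end regions were open in all libraries (83.8%). Among their 75 shared regions, 1 differed between high and low cells, where 1.51% of all regions were called. It lay 31778 bp from Pttg1 (securin) and was higher in high cells (log2 difference 0.50, SE 0.13, adjusted p = 0.0181, limma). Between organs 3 differed for mesenteric against spleen (E2f5 and Mad2l1 lower, Rpa1 higher), where 1.71% of all regions were called. For axillary against spleen 2 differed (Kif23 and Fzr1, both lower), against 6.93% of all. For mesenteric against axillary 8 differed, against 11.3% of all, the largest at the start of Prc1 (0.66, SE 0.13, adjusted p = 0.000332, limma).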

How the data were processed

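ATAC-seq of 18 libraries (6 groups of 3) was analysed from the authors' narrowPeak lists, 1 per library, which per the submitters' processing notes were made with Trimmomatic 0.33, Bowtie2, MACS and bedtools on mm10. Peak names carry a blacklist step. Each deposited list holds a score, a fold over background at the summit (a ratio) and −log10 p and −log10 q values, and gives no counts. The smallest deposited −log10 p in a list was 5.00 to 5.10.

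Whole summit reads and background reads were solved from each fold and −log10 p (tolerance 0.002), since the fold equals reads plus 1 over background plus 1. The strongest peak of a library in a region gave its value. Presence was tested with two-sided exact tests, and log2 reads scaled by the median were tested with limma 3.58.1 (R 4.3.3, trend, 6 groups in 1 fit) with Benjamini-Hochberg adjustment over all regions. The median shared region had 22.8 reads, which limits small differences. Both tests and the read recovery were run on simulated data. The simulated reads carried full sampling noise, which is more than the libraries of a group showed. The recovery was checked with values made by the formula it inverts. These runs therefore do not show how the methods perform on these libraries.

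Values are given for regions with an unadjusted p below 0.05 in a presence test, up to 6 regions per limma comparison, and the strongest gene-end region per role group. The members and lists were chosen with earlier results of these data known. Cdk4 and other genes named outside that rule were chosen after their values were seen. Alternatives were equal lists, a stricter p, equal depth, another merge, 100 kb, other scalings, a read minimum, group means, a replicate block and leaving out libraries. The fragment covariate, the signal-dependent (cyclic loess) scaling and leaving out the 2 libraries whose fragment estimate differs from their organ's were chosen after seeing the data. The fragment covariate held only whether the shortest listed peak of a library was wider than 200 bp.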

Additional observations from a re-analysis of the deposited data

How the results depend on the processing

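Presence counts of 0 (high against low) and 5 (across organs) regions with an unadjusted p below 0.05 became 0 and 4 to 7 with other lists, depth, merging, distance or libraries of like fragment estimate, and leaving out single libraries gave 0 to 2 and 5 to 9. For summit reads the counts called were 3 for high against low, 0, 3 and 1 in spleen, mesenteric and axillary nodes, and 0, 3 and 5 for mesenteric minus spleen, axillary minus spleen and mesenteric minus axillary. Leaving out single libraries gave 1 to 3, then 0 to 1, 0 to 4 and 0 to 1, then 0, 1 to 3 and 1 to 6. Scaling by background reads gave 0 in mesenteric nodes, 0 in axillary nodes and 9 (all higher; 45.3% of all regions called) for axillary minus spleen, and Cdkn2d reversed to 0.03 there. For mesenteric minus axillary it gave 5, all lower. The authors' fold gave 1 for high against low, 1 in mesenteric and 0 in axillary nodes, 1 for mesenteric minus spleen, 5 for axillary minus spleen and 19, all higher, for mesenteric minus axillary (3327 of all regions called), where Mcm3 and E2f7 reversed to 0.04 each. A mean of at least 50 reads left 2 member regions and gave 1 for high against low, 1 in mesenteric nodes, 0 in axillary nodes, 0 for axillary minus spleen and 1 for mesenteric minus axillary. With 1 mean per group there were 0 calls for high against low, 0 for axillary minus spleen and 0 for mesenteric minus axillary. The fragment covariate gave 0 for high against low, 1 for axillary minus spleen and 0 for mesenteric minus axillary. Cyclic loess gave 1 for high against low and 1 in mesenteric nodes. Without the 2 libraries of unlike fragment estimate there was 1 for high against low (E2f3) and 0 in axillary nodes, while 2 for axillary minus spleen (Ccna2 and Ccnd3) were other regions than before. The cause of these changes was not tested, except that fewer regions or samples enter by construction with the read minimum and the group means. Where it could be tested, the far Ccne1 region had the same direction in all of these, and its average call was lost with group means, with the fragment covariate and without those 2 libraries. Over all 8756 regions, 132 were called for high against low, with 18 (group means) to 202 (background scaling) under other settings.

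The replicate numbers did not pair the libraries: same-numbered libraries of different groups deviated with a median correlation of 0.003 (range -0.027 to 0.035), and 7 of 18 libraries correlated best with their own number. With the replicate number as a block, the member counts stayed at 3, 0, 3, 1, 0, 3 and 5 and no call of a region changed.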
